A study of Mus musculus with 6 samples.

Results

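Interferon-stimulated genes were followed across the cell types of the adult mouse olfactory bulb, the first relay station for odor information in the brain. The set was chosen by name and held 9 of the 18560 genes in the count table, and all 9 were present: Ifit1, Ifit3, Isg15, Irf7, Bst2, Ifitm2, Ifitm3, Usp18 and Oasl2. The data came from single-cell RNA sequencing of dissociated olfactory bulbs of the C57BL/6NJ strain, taken when the mice were 14 weeks old, in 6 libraries that each pooled 3 mice. The 2 control libraries came from mice that the sample labels give as not manipulated, although the study's text also describes the open side of the occluded mice as the control. The 2 occluded libraries followed closure of a naris, which removes odor input to that side, and the 2 trained libraries followed training to discriminate odors for a water reward, with 6 weeks of manipulation in both cases. In each group the first library pooled males and the second females. Xist, which is made from the inactive X chromosome, gave 0 to 5 unique molecular identifiers (UMIs) in the first and 20000 to 27904 in the second libraries. Within a group the pool and its sex cannot be told apart. The dissected tissue could also hold some cells of the olfactory epithelium.

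The libraries held 6705 to 10570 annotated cells, 11841160 to 17065083 UMIs and a median of 1028 to 1723.5 UMIs per cell, and 51426 cells in 38 clusters carried the deposited annotation. The names of clusters are those of the deposited annotation, which numbers some clusters differently from the study's text. Of 43 marker genes 41 were highest in their own cell class, the exceptions being Sox10 and Cspg4. A cell barcode sequence was found in more than 1 library for 5.75% of annotated cells. The male control library (control replicate 1) stood apart for the genes described here: it had the highest level of 8 of the 9 genes in microglia, in olfactory ensheathing cells and in neurons, but of 1 of 9 in endothelial cells and 0 of 9 in mural cells. The totals and medians of the members against control are therefore given with and without it, apart from the count of tests between classes. Without it the control is the female pool alone, set against a male and a female pool in the other groups. Sex and condition are then mixed.

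Interferons are secreted when cells sense viral or misplaced nucleic acid. They bind receptors whose Janus kinases activate a transcription factor complex that contains IRF9 and binds the interferon-stimulated response element (ISRE) in front of their target genes. Among the products of these genes, Ifit1 binds foreign RNA ends, Ifit3 is a partner of Ifit1, Isg15 is a ubiquitin-like protein attached to other proteins, Usp18 removes it and also damps signalling at the interferon receptor, Irf7 is a transcription factor that amplifies interferon production, and Oasl2 belongs to the oligoadenylate synthetase family. Bst2 (tetherin) holds budding virus at the cell surface, and Ifitm2 and Ifitm3 are membrane proteins that hinder virus entry. Ifit1, Ifit3, Isg15, Irf7, Usp18 and Oasl2 are called the 6 inducible members, as many cell types also make Bst2, Ifitm2 and Ifitm3 without interferon.

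In the GRCm38.p6 RefSeq annotation the members lie on several chromosomes, with neighbours among them. Ifit3 (chr19:34583119-34588982) and Ifit1 (chr19:34640889-34650009) are 51.9 kb apart, Ifitm2 (chr7:140954837-140959686) and Ifitm3 (chr7:141009590-141010744) are 49.9 kb apart, and Irf7 (chr7:141263183-141266499) follows on the same chromosome. Isg15 is at chr4:156199424-156200818, Bst2 at chr8:71534255-71537472, Usp18 at chr6:121245906-121270917 and Oasl2 at chr5:114896926-114912245. Ifit3 has a near-identical neighbour, Ifit3b, and Ifitm2 and Ifitm3 are paralogs, so that counts within these families may be shared between genes. Promoter sequences from RefSeq (250 bases before to 50 bases after the annotated start) were at hand for 8 of the 9 members, the other being Usp18. For Ifit3, Ifitm2, Irf7 and Oasl2 the start used lies inside the span of the gene given above. The core of the ISRE, written here as GAAANNGAAA and searched on both strands (TTTCNNTTTC on the reverse), was present in 6 of these 8 promoters and in 3.44% of all 32851 promoters of the same length. Matches at 2 or more places, overlapping ones included, were present in 5 of the 8 and in 0.225% of all promoters. The stretches around the matches upstream of the start are printed for Isg15, Ifit1 and Bst2, 5′ to 3′ on the strand of the gene, with the matches in capitals, because they are the sequence that these genes share:
Isg15 (chr4:156200855-156200916, minus strand): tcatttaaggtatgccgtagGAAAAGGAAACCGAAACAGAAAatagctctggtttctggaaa
Ifit1 (chr19:34640765-34640833, plus strand): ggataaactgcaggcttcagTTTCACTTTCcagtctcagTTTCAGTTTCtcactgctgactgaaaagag
Bst2 (chr8:71537567-71537622, minus strand): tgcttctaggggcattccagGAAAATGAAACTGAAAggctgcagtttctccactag
Neighbouring matches overlap among the 3 of Isg15, as do the 2 of Bst2. The 2 of Ifit1 read on the opposite strand and are separated. Ifit3 had 2 matches and Ifitm2 had 1 in their windows, which are not printed because they lie within the gene span. Ifitm3 had 2 matches that begin just after its annotated start, and Irf7 and Oasl2 had no match in this window.

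The members together gave 87540 UMIs in the annotated cells, or 1005 CPM, where CPM is the UMI count scaled to a total of 1000000 UMIs, and 39.5% of cells had a UMI of at least 1 of them. The UMI count was 44096 for Ifitm3, 14937 for Ifitm2, 8835 for Isg15, 7355 for Bst2, 4588 for Ifit3, 3351 for Ifit1, 1666 for Oasl2, 1514 for Irf7 and 1198 for Usp18. Olfactory ensheathing cells, the glia that wrap the incoming axons of olfactory sensory neurons, made up 22.5% of the cells and held 62.2% of the Isg15, 63.1% of the Ifit3, 55.2% of the Ifit1 and 51.4% of the Ifitm3 UMIs. Endothelial cells made up 7.09% of the cells and held 31.6% of the Irf7 UMIs, against 16.3% in ensheathing cells. Of the Oasl2 and Usp18 UMIs endothelial cells held 25.5% and 25.0%, and ensheathing cells 38.1% and 40.5%. For Bst2 the shares were 22.4% in microglia, 22.0% in ensheathing cells and 15.3% in endothelial cells. Neurons, 43.8% of the cells, had low levels of every member: the mean over the 6 libraries was 83.5 ± 18.8 CPM (SD) for Ifitm3, 28.6 ± 5.74 for Ifitm2, 14.9 ± 6.03 for Isg15 and 2.62 to 11.5 for the others.

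**Figure D1:**
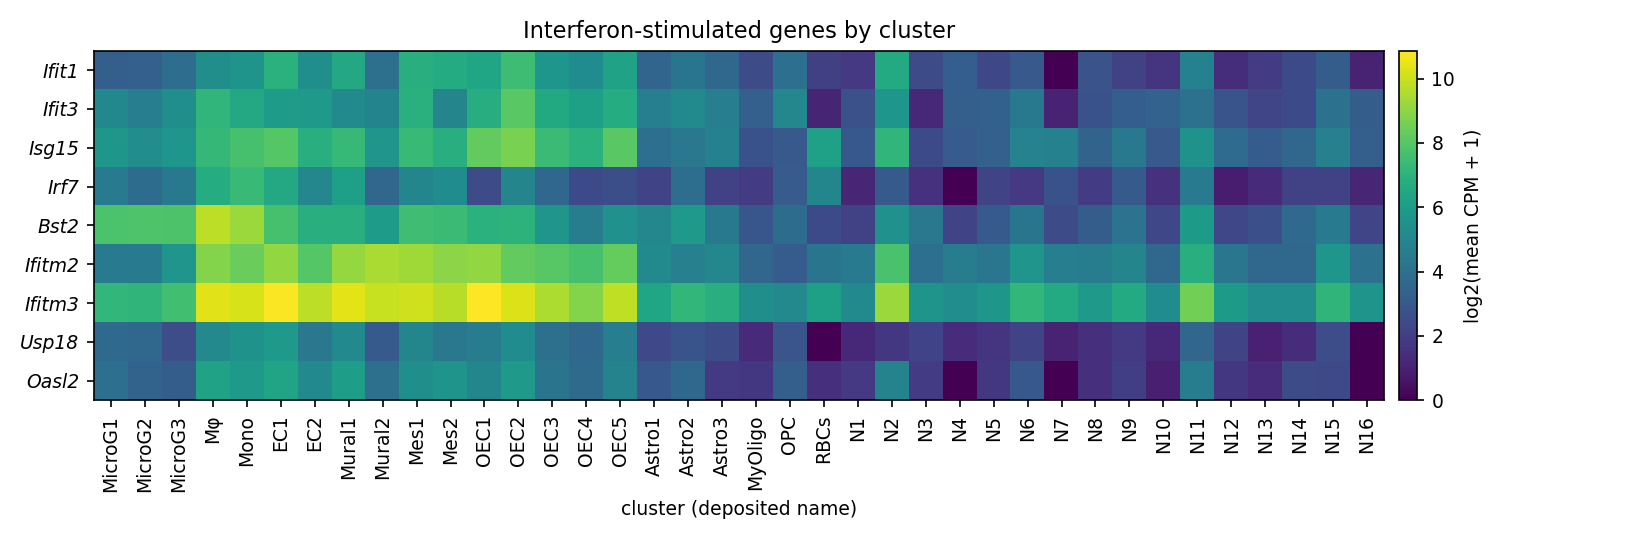
Mean level of each member (rows) in each of the 38 deposited clusters (columns), as log2 of the mean CPM over 6 libraries plus 1. Vascular, mesenchymal and ensheathing clusters, macrophages and monocytes are bright, microglia are bright mainly for Bst2 and Ifitm3, and neurons, oligodendrocytes and their precursors are dark, except the clusters N2 and N11.

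Levels by cluster describe the clusters and were not tested, since the clusters were made from the same counts. Values are CPM of the counts summed per library and cluster, as mean ± SD over 6 libraries. Isg15 and the Ifit genes were highest in OEC2, a cluster of 1740 ensheathing cells. Isg15 was at 413 ± 324 CPM in OEC2, followed by OEC1 (308 ± 69.4), OEC5 (269 ± 103) and the endothelial cluster EC1 (255 ± 30.5). Ifit3 was at 272 ± 209 CPM in OEC2, followed by macrophages (140 ± 88.6). Ifit1 was at 177 ± 121 CPM in OEC2, followed by EC1 (123 ± 13.3) and the mesenchymal cluster Mes1 (111 ± 122). None of these neighbours in the order differed by more than both SDs over libraries. OEC2 was also the highest cluster for these 3 genes without control replicate 1, at 294 CPM of Isg15 (OEC1 287), 194 of Ifit3 and 134 of Ifit1 (EC1 119).

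A UMI of Isg15 was found in 28.4% of OEC2, 30.1% of OEC1, 25.6% of OEC5 and 26.2% of EC1 cells. The median OEC2 cell had 2246.5 UMIs. Myelinating oligodendrocytes, which were deeper with a median of 3322 UMIs, had a share of 1.75%. The part of free RNA in the droplets in these shares was not measured.

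Irf7 was highest in monocytes, at 162 ± 70.2 CPM, followed by macrophages (105 ± 50.9) and EC1 (93.7 ± 13.0), and these neighbours did not differ beyond their spread. Usp18 and Oasl2, a brake and an effector of the response, were highest in EC1 at 58.0 ± 15.5 and 81.6 ± 15.8 CPM. Monocytes came next for Usp18 (46.7 ± 24.3) and macrophages for Oasl2 (75.4 ± 33.6), in both cases within the spread of EC1 or their own. In the 2 control libraries alone, the highest cluster of Usp18 and Oasl2 was OEC2 and that of Ifitm3 was EC1.

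Bst2 was highest in myeloid cells. It was at 870 ± 166 CPM in macrophages, and at 601 ± 125 CPM in monocytes. Macrophages were above monocytes, and monocytes above microglia, by more than the spread and in each library, whereas the microglial clusters MicroG1, MicroG2 and MicroG3 lay within each other's spread (221 ± 47.2, 233 ± 15.0 and 230 ± 36.6 CPM). A UMI of Bst2 was found in 63.1% of macrophages and 44.6% of monocytes, against 1.86% of oligodendrocytes.

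Ifitm2 and Ifitm3 were the most abundant members. Ifitm2 was highest in Mural2, a cluster of cells of the vessel wall, at 722 ± 28.3 CPM, ahead of Mes1 (644 ± 40.2) by more than the spread. Ifitm3 was at 1869 ± 82.7 CPM in OEC1 and 1777 ± 253 CPM in EC1, which did not differ beyond their spread. EC1 was above Mural1 (1385 ± 238) by more than the spread and in each library. The microglial clusters, with 221 to 233 CPM of Bst2, had 136 to 192 CPM of Ifitm3, whereas OEC1 had 124 CPM of Bst2.

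The neuronal clusters N2 and N11 were exceptions among the 16 called neuronal. The 68 cells of N2 had 97.7 ± 83.2 CPM of Ifit1 and 143 CPM of Isg15, whereas the median neuronal cluster had 4.27 and 10.5 CPM. N2 also had 7438 ± 2734 CPM of the 3 ensheathing markers (Sox10, Frzb and Npy) summed, against 13365 ± 752 in OEC2 and 288 ± 64.9 in N1, and N11 had 3469 ± 1375 CPM of the 4 endothelial markers (Cldn5, Flt1, Slco1c1 and Ly6c1), against 14760 ± 1326 in EC1 and 80.6 ± 26.8 in N1. The part of these other cell types in the member levels of N2 and N11 was not tested.

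Across the 38 clusters the members resembled each other to different degrees. The following correlations are Pearson's r of log2(mean CPM + 1) over 38 clusters that share libraries and differ in depth, and are given as a description. Ifitm2 and Ifitm3 were closest (0.97), followed by Isg15 and Ifitm3 (0.94), Usp18 and Oasl2 (0.92) and Ifit1 and Oasl2 (0.91), and the lowest value was that of Ifit3 and Irf7 (0.57). Among 8795 genes, namely those that reached 50 CPM in at least 1 cluster and the members, the gene most like Ifit3 was its neighbour Ifit3b (0.92). Usp18 was closest to Rtp4 (0.93), which interferon also induces, and Irf7 to the antiviral enzyme Rsad2 (0.87), whose highest level was in red blood cells (71.5 CPM). Bst2 was closest to Parp14 (0.94), B2m (0.93) and H2-K1 (0.93), the last 2 being chains of the class I antigen-presenting complex. The remaining partners outside the set, among the 3 genes most like each member, were Samd9l for Ifit1 (0.89), Nmi for Ifit3 (0.86), Ifi35 for Isg15 (0.87), Ifitm3 (0.91) and Usp18 (0.90), Tspo (0.85) and Sp100 (0.84) for Irf7, Ahnak (0.89) and Aldh2 (0.89) for Ifitm2 and Rtp4 (0.91) for Oasl2.

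Of 9 interferon genes listed as ligands only Ifng was in the count table, with 4 UMIs in all annotated cells. All 6 receptor genes were in the table. The levels of the receptor chains given here were looked up after the results were known. Ifnar1, a chain of the type I receptor, was at 158 ± 20.6 CPM in endothelial cells, 35.7 ± 5.25 in microglia, 30.0 ± 4.06 in neurons and 25.5 ± 2.10 in ensheathing cells. Ifnar2, the other chain, was at 157 ± 26.5, 154 ± 18.8, 22.1 ± 4.04 and 56.7 ± 9.28 CPM in the same order. The lambda receptor chain Ifnlr1 gave 73 UMIs in all, 60 of them in ensheathing cells, where it was at 2.65 ± 0.587 CPM.

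The levels of the inducible members in OEC2 spanned a wider range over libraries than those in EC1. Isg15 in OEC2 was at 1005 and 397 CPM in control replicates 1 and 2, at 178 and 513 CPM in occluded replicates 1 and 2, and at 121 and 263 CPM in trained replicates 1 and 2. Ifit3 in the same order was at 663, 286, 120, 286, 87.2 and 191 CPM, and Ifit1 at 391, 198, 72.7, 196, 56.4 and 147 CPM. The male control library was thus highest, the male occluded and male trained libraries were lowest, and the female libraries of the 3 groups lay between them for these 3 genes.

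The 6 inducible members summed spanned 292 to 2422 CPM in OEC2, a ratio of highest to lowest of 8.28. In EC1 the sum was 696 and 763 CPM in the control, 585 and 726 in the occluded and 603 and 665 in the trained libraries, a ratio of 1.30. The occluded libraries overlapped the control ones, and both trained libraries were below both control libraries. Isg15 alone in EC1 was at 261, 305, 226, 272, 238 and 229 CPM. Other ensheathing clusters lay between, with ratios of 1.90 in OEC1, 2.43 in OEC3, 2.11 in OEC4 and 2.78 in OEC5. OEC2 was not alone in its spread. Mes1, at 131 to 1056 CPM, had a ratio of 8.08 and MicroG3, at 32.6 to 281 CPM, one of 8.63. The highest MicroG3 value, in occluded replicate 2, rested mostly on 1 of 152 cells, which held 75.8% of its inducible UMIs. MicroG1, MicroG2 and the astrocyte cluster Astro2 had 5.41, 5.24 and 5.35. Control replicate 1 was the highest library in OEC2, Mes1, MicroG1, MicroG2 and Astro2. The next highest library there was at 1123, 924, 171, 97.0 and 82.9 CPM. Bst2, Ifitm2 and Ifitm3 summed had lower ratios than the inducible members in OEC2 (2.24) and OEC1 (1.15), and a higher one in EC1 (1.46). OEC2 made up 12.9% to 17.3% of ensheathing cells in each library, and the 3 ensheathing markers summed to 12275 to 14517 CPM in OEC2 over the libraries.

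**Figure D2:**
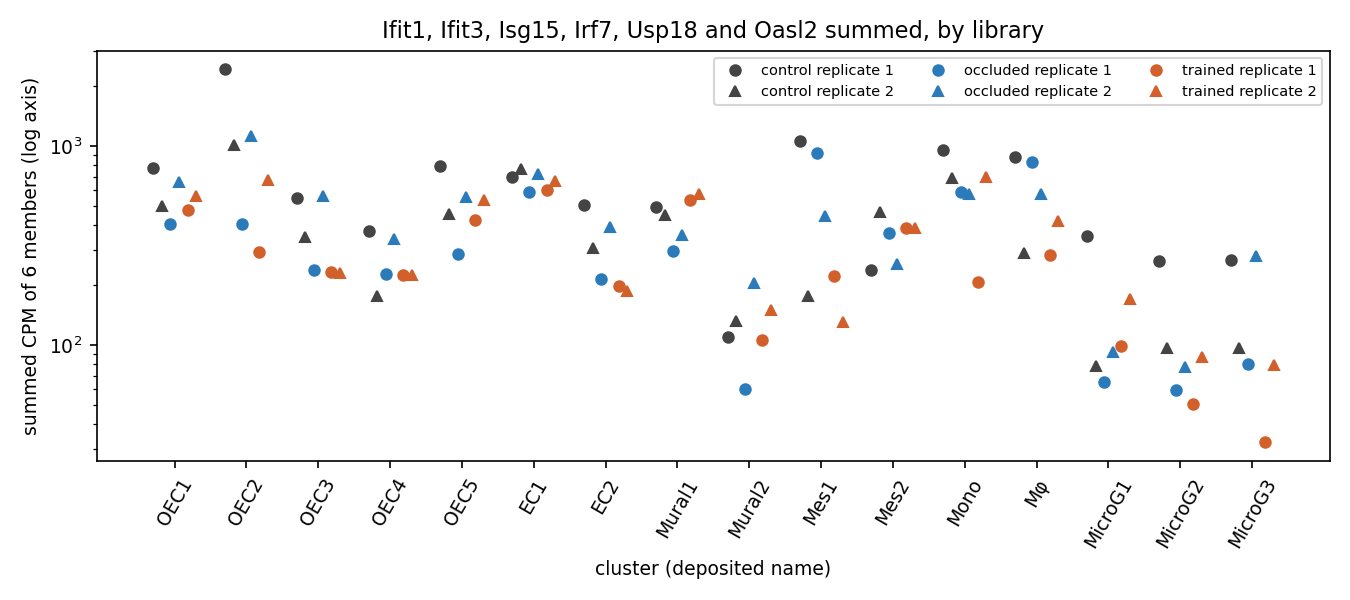
Summed CPM (log axis) of Ifit1, Ifit3, Isg15, Irf7, Usp18 and Oasl2 in each library, for 16 glial, vascular, mesenchymal and myeloid clusters. Circles are replicate 1 (male pools) and triangles replicate 2 (female pools), and OEC2 spreads from 292 to 2422 CPM while EC1 stays between 585 and 763.

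A small share of cells held about as many inducible UMIs as all the rest. Over all clusters 43722 cells had a UMI of none of the 6, 5291 of 1, 1312 of 2, 602 of 3, 271 of 4, 163 of 5 and 65 of all 6. The 1101 cells with 3 or more, 2.14% of the total (95% exact binomial interval 2.02% to 2.27%), held 51.8% of the 21152 UMIs of these genes. These intervals cover counting error only. The cells were picked by their UMIs of these same genes, which by itself raises the share of UMIs they hold. Such cells were deeper than the rest, with a median of 2461 against 1328 UMIs, and the part of depth in the share was examined by thinning. In ensheathing cells with a UMI of Ifit1, 59.8% also had Isg15 and 50.7% also had Ifit3, against 16.3% and 9.71% of those without Ifit1. The former had a median depth of 2334.5 UMIs and the latter one of 1696.

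Of the 1101 cells, 558 were ensheathing, 266 endothelial, 55 mesenchymal, 52 monocytes, 46 microglia, 37 macrophages, 30 mural, 29 neurons and 20 astrocytes. By cluster the share was 12.9% in OEC2 (11.4% to 14.6%), 13.9% in Mural1 (8.94% to 20.3%, 158 cells), 9.87% in EC1 and 8.35% in monocytes. Of the 225 such cells in OEC2, 107 were in control replicate 1, and without that library the share was 8.61% in OEC2 (7.18% to 10.2%) and 9.45% in EC1 (8.22% to 10.8%), so that OEC2 was no longer above EC1. Microglia had 1.15%, or 0.631% without control replicate 1. Neurons had 0.129%, or 0.0781% without that library, and 23 of the 29 neuronal cells were in N2 and N11. Mural1 was the deepest of these, with a median of 3508 UMIs. With each cell thinned to 1000 UMIs and shallower cells left out, the share was 7.73% in OEC2, 4.37% in EC1, 3.93% in monocytes, 2.55% in Mural1 (4 of 157 cells) and 1.33% over all cells, which put Mural1 below OEC2. After thinning, microglia had 0.427%, or 0.159% without control replicate 1, and neurons 0.0438%, or 0.0440% without it. The thinned shares without control replicate 1 were 4.58% in OEC2 (3.502% to 5.86%) and 4.07% in EC1 (3.18% to 5.11%). In the neuronal clusters N1 and N13 there were 0 of 3311 and 0 of 2974 cells, which allows a share of up to 0.0906% and 0.101% by a limit of 3 counts, while the exact 95% intervals reach 0.111% and 0.124%. In OEC2 the cells with 3 or more held 77.3% of the inducible UMIs, against 50.9% in EC1. By library this ranged from 35.7% in trained replicate 1 to 89.2% in control replicate 1 in OEC2. In EC1 it ranged from 44.7% to 55.1%.

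The share of OEC2 cells with 3 or more of the 6 was 28.9% (24.3% to 33.8%) and 14.3% in control replicates 1 and 2, 3.36% and 12.9% in occluded, and 2.75% (1.11% to 5.57%) and 9.21% in trained replicates. Control replicate 1 had the highest share, and the male occluded and male trained libraries the lowest. In EC1 the share was 11.7% and 10.98% in the control, 7.43% and 10.4% in the occluded and 7.49% and 10.6% in the trained libraries, all of the latter 4 below the controls. After thinning each cell to 1000 UMIs and leaving out shallower cells, which kept 215 to 355 OEC2 cells per library, the shares in OEC2 were 19.2%, 7.58%, 1.38%, 9.51%, 0.820% and 3.26%.

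**Figure D3:**
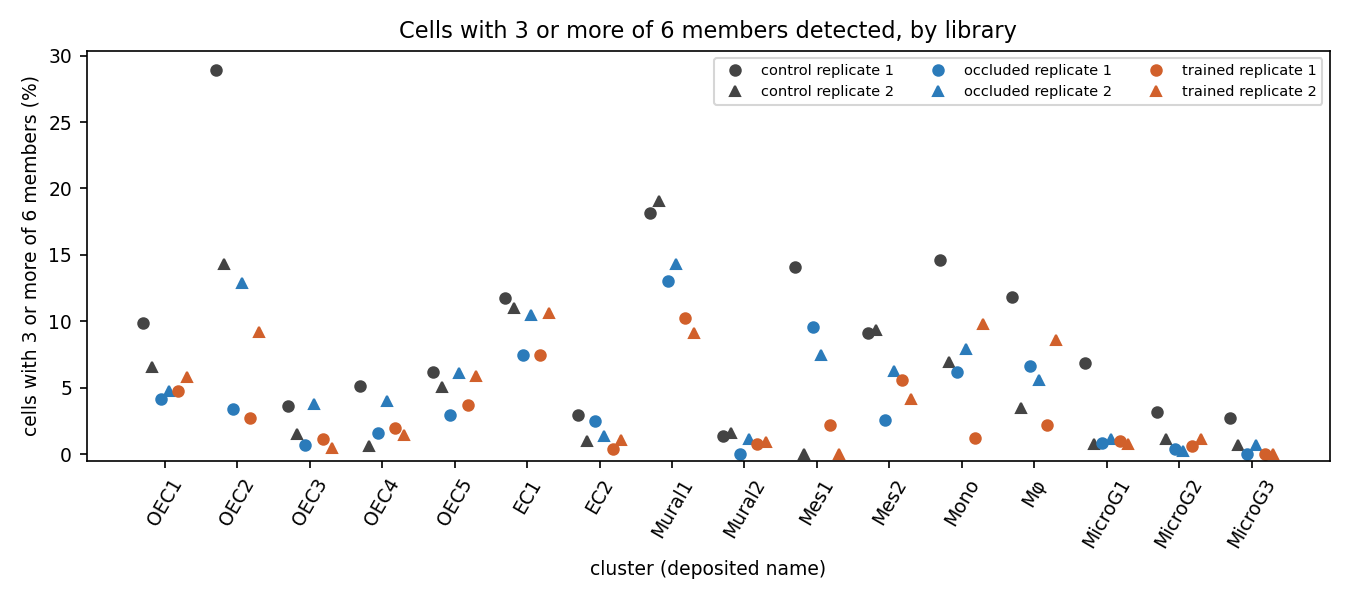
Percent of cells in each cluster and library with a UMI of 3 or more of the 6 inducible members, with circles for replicate 1 (male pools) and triangles for replicate 2 (female pools). OEC2 ranges from 2.75% to 28.9%, and microglial clusters stay low except in control replicate 1.

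Over all annotated cells the share was 3.84% and 2.15% in the control, 1.41% and 2.53% in the occluded and 0.956% and 1.72% in the trained libraries. The occluded mean was 1.02 percentage points below the control mean (p = 0.667, exact two-sided permutation test, n = 2 against 2) and the trained mean 1.66 points below it (p = 0.333, exact two-sided permutation test, n = 2 against 2), which is the smallest p that this design allows. The trained mean was 0.639 points below the occluded mean (p = 0.667, exact two-sided permutation test). Leaving out 1 library at a time gave differences of -1.20 to -0.0779 points. Without control replicate 1 the differences from the control were -0.179 and -0.817 points. In microglia the share was 3.70% in control replicate 1 (25 of 675 cells) and 0.423% to 0.938% in the other 5 libraries.

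Occlusion and training were then compared with the control, to ask whether these genes differed in any cell class. The methods describe the trained mice as water deprived, which cannot be told apart from the training itself. Counts were summed per library within 11 classes and tested with edgeR's quasi-likelihood test across all genes, with p-values adjusted by the Benjamini-Hochberg method within each class. The members passed the filter on low counts in 77 of 99 combinations of gene and class, which favours classes where they are high. No member was called at adjusted p under 0.05 in occluded against control, trained against control or trained against occluded, where 0.0299%, 0.0586% and 0.436% of all gene tests were called. Without the filter edgeR called 9, 15 and 5 of 99, against 0.176%, 0.331% and 0.814% of all tests, mostly in ensheathing cells, microglia and neurons and all lower in the first-named group. At an unadjusted p under 0.05 there were 16, 31 and 12 of the 77, against 4.84%, 6.60% and 9.03% of all tests, and DESeq2 called 0, 1 and 0 of 99, against 0.00743%, 0.0354% and 0.135% of all tests. The comparisons share libraries and the classes share pools, so these tests are not independent of each other. The test was also run on simulated counts for the trained and control libraries. It recovered 98.0% of changes of 1 on the log2 scale in ensheathing cells and 82.0% in microglia. It also called 8 and 11 unchanged genes. The simulation changed only genes above the median level and gave them the spread typical of their level. Its recovery therefore does not measure that of the members, which had few UMIs or differed widely between pools in some classes. As the replicates are 2 pools a group, p-values measure the spread between pools.

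The members were lower than in control in 60 of 77 tests for occluded libraries, with a median log2 fold change of -0.32, and in 65 of 77 for trained libraries, with a median of -0.58. The median over all genes was 0.00 in both cases. Mural cells went the other way for trained libraries, with 6 of 8 members higher and a median of 0.22. Without control replicate 1 the members were lower in 39 of the 77, with a median of -0.03, for occluded and in 50 of the 77, with a median of -0.17, for trained libraries, and 6 and 11 had an unadjusted p under 0.05, against 3.64% and 4.63% of all tests. Control is then the female pool alone, so sex and condition are mixed in the values without control replicate 1. Trained against occluded gave 53 of 77 lower, with a median of -0.16. In summed counts a lower level cannot be told apart from fewer cells of a kind within the class.

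In ensheathing cells Isg15 was at 439 and 202 CPM in the control, 158 and 280 in the occluded, and 159 and 200 in the trained libraries. Only control replicate 1 lay above the occluded range, and the log2 fold changes against control were -0.57 ± 0.28 (SE) for occluded and -0.83 ± 0.29 for trained (adjusted p = 0.998 and 0.519). Ifit3 was at 239, 129, 80.7, 145, 64.7 and 98.5 CPM, with fold changes of -0.73 ± 0.27 and -1.18 ± 0.28 (adjusted p = 0.998 and 0.193). Ifit1 was at 155, 83.6, 44.8, 94.7, 41.3 and 65.7 CPM, with -0.81 ± 0.30 and -1.17 ± 0.32 (adjusted p = 0.998 and 0.299). For Ifit3 and Ifit1 both trained libraries were below both control libraries, while the occluded ones overlapped them. Without control replicate 1 the fold changes were 0.093 and -0.17 for Isg15, -0.21 and -0.67 for Ifit3 and -0.29 and -0.65 for Ifit1.

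The median of the 9 members in ensheathing cells was -0.73 for occluded and -1.11 for trained against control. Without control replicate 1 these medians were -0.19 and -0.37, and without control replicate 2 they were -1.08 and -1.52. In OEC4 alone, the largest ensheathing cluster, they were 0.13 and -0.22 over the 8 members tested. The clusters took unequal shares of the ensheathing cells: OEC1 had 22.2% and 19.0% in the control, 21.8% and 22.9% in the occluded and 12.02% and 17.8% in the trained libraries, and the shallow OEC3 (median 817 UMIs) had 25.7%, 29.5%, 24.5%, 23.3%, 36.7% and 30.1%. OEC1 was thus rarer and OEC3 more frequent in both trained libraries than in any other, and their part in the class medians was not tested. The 3 red blood cell markers summed in ensheathing cells to 280 and 59.4 CPM in the control, 152 and 205 in the occluded and 35.9 and 56.6 in the trained libraries. The 4 endothelial markers followed another order, at 1377 and 1159, 1494 and 1341, and 954 and 1380 CPM. Cldn5 alone gave 1251 CPM of their mean of 1284 CPM, so this sum reflects mostly 1 gene. Whether these marker RNAs came from other cells, and their part in the member levels, was not tested. Ifitm2 in ensheathing cells was at 277 to 336 CPM over the 6 libraries.

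In microglia, the resident immune cells of the brain, the 6 inducible members summed to 285 CPM in control replicate 1 and to 55.7 to 113 CPM in the other libraries. By cluster, MicroG3 also had a high sum in occluded replicate 2 (281 CPM, against 268 in control replicate 1). In occluded replicate 2, however, 1 of 152 MicroG3 cells held 75.8% of these UMIs, and the remaining cells were at 69.4 CPM. In control replicate 1, 4 of 148 held 43.2%, and the remaining cells were at 158 CPM. Isg15 was at 101 and 23.5 CPM in the control, 27.9 and 40.2 in the occluded and 22.1 and 44.2 in the trained libraries, and Ifit3 at 72.0, 25.2, 14.4, 25.7, 8.57 and 22.9 CPM. Control replicate 2 was below both occluded libraries and within the trained range for Isg15, and above both trained libraries and within the occluded range for Ifit3. The fold changes of Isg15 were -0.85 ± 0.47 and -0.96 ± 0.46 (adjusted p = 0.997 and 0.957) with all libraries, and 0.56 and 0.45 without control replicate 1. Those of Ifit3 were -1.25 ± 0.45 and -1.69 ± 0.46 (adjusted p = 0.997 and 0.903), and -0.30 and -0.73 without that library. The medians of the 9 members were -0.87 and -0.92, and without that library -0.04 and -0.07. The 3 ensheathing markers summed to 407 CPM in microglia of control replicate 1 and to 285 to 434 CPM in the other 5 libraries. Ensheathing cells themselves had 961 CPM of the 6 inducible members in control replicate 1 and 296 to 587 CPM in the other 5. The 3 red blood cell markers summed in microglia to 1861 CPM in control replicate 1 and 2430 CPM in occluded replicate 2, against 43.4 to 151 CPM in the other 4. Red blood cells themselves had 92.2 and 32.5 CPM of the 6 inducible members in these 2 libraries. The part of RNA from ensheathing and red blood cells in the microglial levels was not tested. Bst2 was at 211 to 262 CPM in every library.

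No member was called in endothelial cells either. Isg15 was at 238 and 266 CPM in the control, 198 and 253 in the occluded and 208 and 206 in the trained libraries, with fold changes of -0.16 ± 0.15 and -0.25 ± 0.15 (adjusted p = 0.990 and 0.707) and 95% intervals of -0.48 to 0.16 and -0.57 to 0.07. Ifit3 was at 77.0 and 67.4 CPM in the control, 59.99 and 77.8 in the occluded and 33.8 and 52.2 in the trained libraries. Both trained libraries were lowest, with a fold change of -0.76 ± 0.23 (adjusted p = 0.233). The medians of the members were -0.19 and -0.25, and without control replicate 1 they were -0.24 and -0.34.

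**Figure D4:**
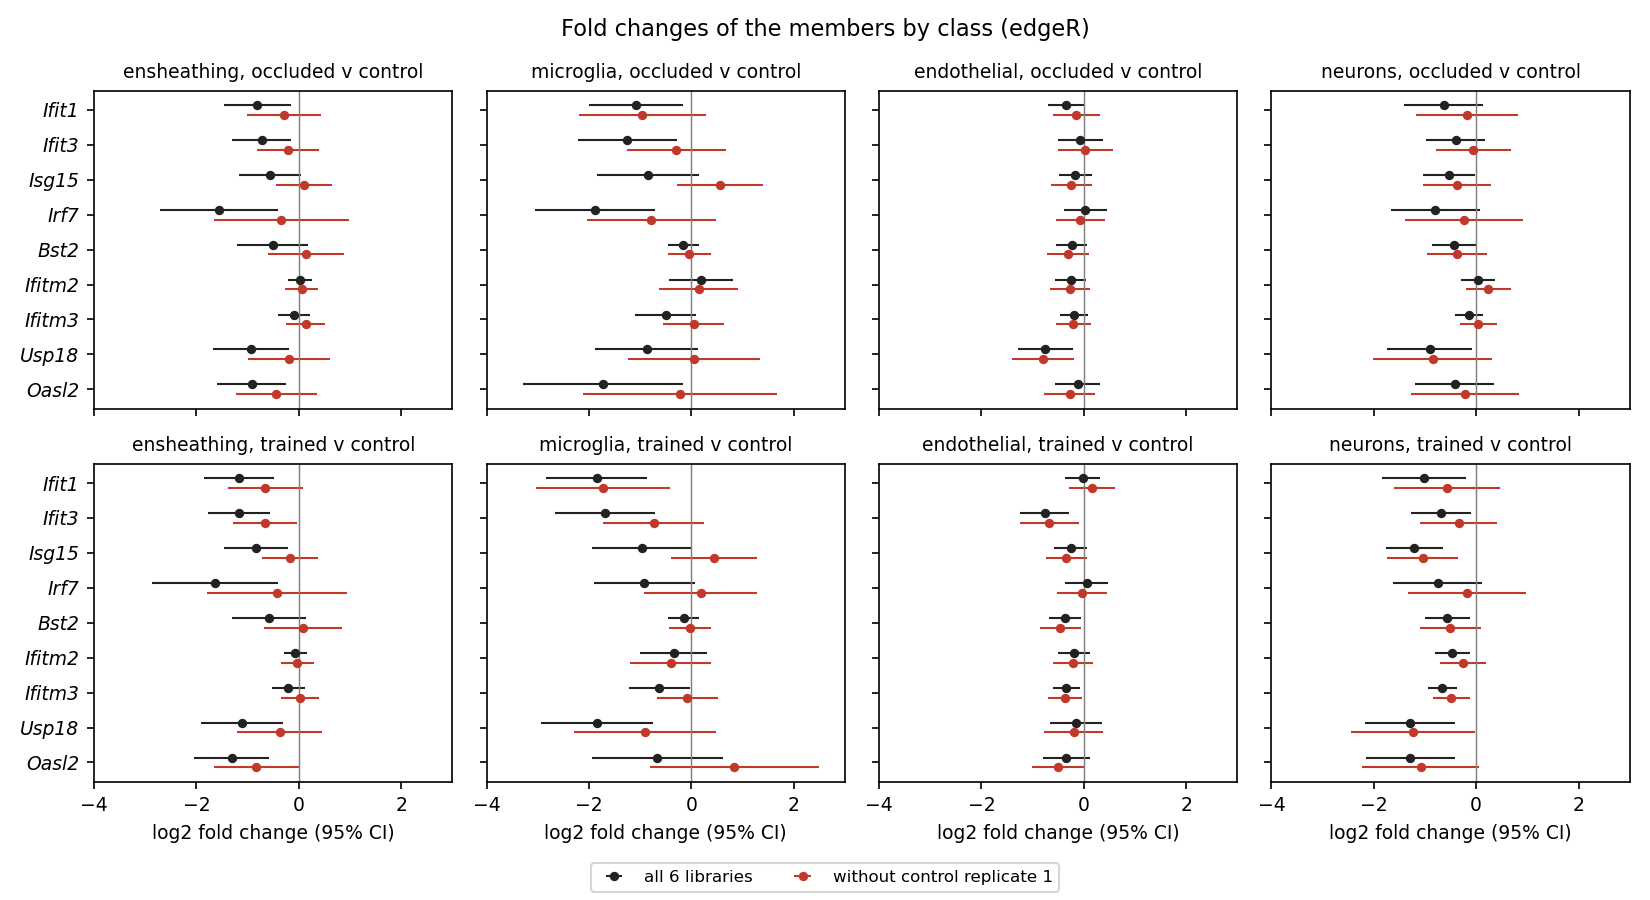
Log2 fold change with 95% interval of each member in ensheathing cells, microglia, endothelial cells and neurons, for occluded (top) and trained (bottom) against control, with all 6 libraries (black) and without control replicate 1 (red). Most black points lie left of 0, and in microglia and ensheathing cells many red points lie nearer 0 than the black ones while in endothelial cells the pairs lie close together.

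In neurons both trained libraries had less Ifitm3 and Isg15 than any other library. Ifitm3 was at 107 and 86.0 CPM in the control, 86.2 and 98.4 in the occluded and 62.5 and 60.5 in the trained libraries, and Isg15 at 22.4, 18.6, 10.4, 19.6, 8.75 and 9.28 CPM. The fold changes for trained against control were -0.66 ± 0.13 for Ifitm3 and -1.21 ± 0.26 for Isg15 (adjusted p = 0.0880 and 0.116), and all 9 members were lower, with a median of -0.75, or -0.51 without control replicate 1. Without that library the fold changes were -0.49 for Ifitm3 and -1.05 for Isg15. DESeq2 called Ifitm3 in this comparison (adjusted p = 0.0488). A further edgeR fit took the replicate number, and so the sex of the pool, as a block. It called Isg15 for trained against control (adjusted p = 0.0487), where 0.163% of tests over all classes were called. It also called Ifitm3 for trained against occluded (adjusted p = 0.0483), where 0.701% over all classes were called. Shares for neurons alone are not given for this fit. Without the block, 1.97% of neuronal tests were called for trained against occluded, against 0.436% over all classes. For trained against control these shares were 0.0746% and 0.0586%. A call for trained against occluded was thus more frequent in neurons than over all classes. The 3 ensheathing markers summed in neurons to 883 and 664 CPM in the control, 662 and 801 in the occluded and 717 and 569 in the trained libraries. The 4 endothelial markers summed in neurons to 406 and 424, 460 and 385, and 305 and 330 CPM in the same order. The 3 red blood cell markers summed to 188 and 581, 487 and 394, and 106 and 64.9 CPM. Both sums were thus lowest in the trained libraries, as were Ifitm3 and Isg15. The neuronal clusters also took unequal shares. N13 made up 9.03% and 9.17% of neurons in the trained libraries and 12.01% to 20.4% in the other 4. Ifitm3 was at 39.4 ± 12.3 CPM in N13, below the neuronal mean given above. Shares of other clusters differed too: N6 made up 24.3% and 7.52% of neurons in the trained libraries and 5.92% to 14.8% in the other 4. The net effect of all cluster shares on the class level was not computed. The part of these other cells and of the cluster shares in this result was not tested.

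Whether a change differed between classes of the same libraries was tested directly for 10 pairs of classes. Of 180 such member tests 1 was called, where 0.0443% of all tests were called, and 0.18% of those for the pair and contrast in question. At an unadjusted p under 0.05 there were 46 of the 180 (25.6%), against 5.52% of all tests. All of these tests use control replicate 1, and each class enters several pairs. They are therefore not independent of each other, and a high value in a single pool can recur among them. On simulated counts for endothelial and ensheathing cells this test recovered 53.6% of differences of 1 on the log2 scale (52 of 97). It also called 11 unchanged genes. This simulation has the limits given above and does not measure the recovery of the members. The member called was Ifit1, whose change with training differed between endothelial and ensheathing cells by 1.18 ± 0.23 on the log2 scale (adjusted p = 0.0123, edgeR). Endothelial Ifit1 was at 131 and 102 CPM in the control and 112 and 114 in the trained libraries, whereas in ensheathing cells it was at 155 and 83.6 and at 41.3 and 65.7 CPM. Without control replicate 1 the difference was 0.87 and was not called (adjusted p = 0.901).

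The wider interferon pathway was read from lists of 102 other genes, of which 91 were in the table. They covered ligands, receptors, signal transducers, sensors, regulatory factors, 44 other genes induced by type I interferon and 20 linked to interferon gamma. With edgeR 0 of 491 tests were called in either direction in each of the 3 comparisons, and with DESeq2 0 of 944. At an unadjusted p under 0.05 there were 46 (9.37%) for occluded against control, 88 (17.9%) for trained against control and 57 (11.6%) for trained against occluded, against 4.84%, 6.60% and 9.03% of all tests. Of the 491, 295, 340 and 302 were lower in the first-named group, with medians of -0.09, -0.18 and -0.10 on the log2 scale. Of the lists, the other type I induced genes had medians of -0.19 and -0.30 against control, the interferon gamma linked genes -0.12 and -0.24, the receptors 0.15 and -0.06, the regulatory factors 0.04 and 0.02, the signal transducers -0.07 and -0.03, and the sensors -0.08 and -0.27. Without control replicate 1 the medians were 0.0066 and -0.08 for the other type I induced genes, -0.18 and -0.31 for the interferon gamma linked genes, 0.04 and -0.11 for the receptors, -0.09 and -0.10 for the regulatory factors, -0.09 and -0.09 for the signal transducers and 0.02 and -0.0024 for the sensors. In all lists 34 (occluded) and 56 (trained) of 490 tests then had an unadjusted p under 0.05, against 3.64% and 4.63% of all tests. Ifi27l2a in oligodendrocytes was then called in both comparisons with control (-2.38 and -2.85, adjusted p = 0.00123 and 0.000616), where 0.0379% and 0.039% of all tests were called. Control is then replicate 2 alone, which stood apart in oligodendrocytes with 219 CPM of Ifi27l2a, against 48.1 in control replicate 1, 10.4 and 71.5 in the occluded and 36.6 and 24.7 in the trained libraries. Iigp1 in macrophages was called for trained against occluded (-2.18, adjusted p = 0.0249), where 0.392% were called. Both genes were named after their values were seen.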

How the data were processed

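The labels and methods describe 3′ single-cell libraries made with the 10x Genomics kit. Per the submitters' processing notes, the authors used Cell Ranger 2.0.0 and Seurat 2.2.1 with the mm10 build, and the methods state a minimum of 200 genes per cell. The deposited table holds raw UMI counts per gene and cell, with 52549 barcodes, of which 1123 had no cluster and were left out. The deposited annotation gives each cell's cluster, its library and its mitochondrial share as a fraction of UMIs (median 9.25% to 14.4% per library). The library was taken from the annotation, because all 6705 and 10570 trained cells carry the opposite trained number in the start of the barcode name. No doublet caller was run here.

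Cells were summed per library and cluster for CPM, and per library and 11 classes for edgeR 4.0.16 (TMM, filterByExpr, quasi-likelihood test, all 6 libraries in 1 fit, R 4.3.3). DESeq2 1.42.0 was an alternative. Shares were compared by exact permutation in scipy 1.17.1. The tests were run on simulated data. Where clusters were ranked, neighbours were called apart only if the difference exceeded both SDs and held in each library. A share of 0 was limited by 3 counts. Named genes were the members, the 3 genes most like each over clusters, and pathway genes passing adjusted p under 0.05, of which there were 0. The ligand and receptor genes, Ifi27l2a and Iigp1 were named outside this rule, after their values were seen. A marker and a pathway gene are not reported here and were left out of their lists. The members and lists were chosen with earlier results of these data known. Alternatives covered the replicate block, scaling, the filter on low counts, cell depth, cluster choice and leaving out each library, and 3 were added after seeing the data.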

Additional observations from a re-analysis of the deposited data

Results flagged for a closer look

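The change of Ifit1 with training differed between endothelial and ensheathing cells by 1.18 ± 0.23 (SE) on the log2 scale (adjusted p = 0.0123, edgeR interaction term over all genes), and was singled out because the same contrast gave different effects in 2 cell classes of the same libraries. It was called in 6 of the 10 alternatives. The difference kept its direction in all 10, from 0.81 to 1.53. It was not called with DESeq2 (1.13), without control replicate 1 (0.87), without control replicate 2 (1.38) or without trained replicate 1 (0.81) (adjusted p = 1.00, 0.901, 0.0653 and 0.321). Ifit1 was at 131, 102, 112 and 114 CPM in endothelial cells and at 155, 83.6, 41.3 and 65.7 CPM in ensheathing cells of control replicates 1 and 2 and trained replicates 1 and 2. No group had enough samples for a search for samples far from the rest.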

How the results depend on the processing

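Over 54 results and 653 alternatives, 555 kept their direction and side of the threshold, 51 passed the threshold only under the alternative, 4 lost it, 25 values or counts moved and 18 changed sign. No member was called by edgeR against 9, 15 and 5 without the filter on low counts (occluded against control, trained against control, trained against occluded). Occluded against control gave 1 call with the largest cluster of each class (0.0378% of all tests), trained against control 1 with DESeq2 (0.0354%) and 1 with only the 2 groups compared (0.0527%), and trained against occluded 1 with cells of at least 1000 UMIs (0.391%). Leaving out 1 library, where the remaining one of its group is assumed to vary like the other groups, gave 0 to 1, 0 to 3 and 0 to 3 calls, where 0.0379% to 0.0972%, 0.039% to 0.437% and 0.162% to 1.24% of all tests were called. Without control replicate 2 (0.0491% and 0.1%) these were Irf7 in microglia for occluded, and Isg15 and Ifit3 in microglia and Isg15 in mesenchymal cells for trained, all lower. Of the tests of a difference between classes, 0 were called with DESeq2 (0.000559% of all such tests), 6 without the filter (0.083%), 2 with cells of at least 1000 UMIs (0.0672%), and 0 to 8 without 1 library (0.0273% to 0.0891%), the 8 being without control replicate 2 (0.0318%). With the replicate number as a block, 0, 1 and 3 members were called, against 0.0634%, 0.163% and 0.701% of all tests: Isg15 in neurons for trained against control, and Ifit3 in macrophages, Ifit1 in mesenchymal cells and Ifitm3 in neurons for trained against occluded. Same-numbered libraries correlated by -0.010 to 0.323 over classes with only 2 numbers, and they share the sex of the pool. In the largest cluster of a class the log2 fold change turned to 0.13 for Ifit3 and 0.0019 for Ifit1 in endothelial cells (occluded and trained against control), to 0.18 for Usp18, 0.14 for Bst2 and 0.14 for Ifit3 in ensheathing cells (occluded) and to 0.18 for Usp18 (trained). Leaving out 1 library gave ranges that cross 0. In microglia Isg15 ranged from -1.55 to 0.56 for occluded and from -1.65 to 0.45 for trained. In endothelial cells Isg15 ranged from -0.37 to 0.0061 and Ifit3 from -0.29 to 0.10 for occluded, and Ifit1 from -0.19 to 0.17 for trained. In ensheathing cells Isg15 ranged from -1.04 to 0.093 and Bst2 from -0.93 to 0.14 for occluded, Bst2 from -1.21 to 0.077 for trained, and Ifit3 from -0.82 to 0.038 for trained against occluded. The difference in the share of cells with 3 or more inducible members, trained against occluded, ranged from -0.0292 to 0.300 points in microglia and from -2.70 to 0.493 points in ensheathing cells. The cause of these changes was not tested. The 2 libraries in a group limit every comparison, and Usp18 and Irf7 have few UMIs.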

Other observations

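The 1123 barcodes outside the deposited clusters were in no comparison. Their summed level of the 9 members was 914 and 878 CPM in the control, 738 and 793 in the occluded and 692 and 573 in the barcodes of trained libraries, which have no annotated library and are split by the start of the barcode name, so that they cannot be matched to trained replicates 1 and 2. In control replicate 1, 22 of 262 such barcodes had a UMI of 3 or more of the 6 inducible members, and in the other 5 sets 2 to 4 did. Red blood cells, with 219 annotated cells, had 206 CPM of Isg15 and 146 CPM of Irf7 in control replicate 2, and 10.8 to 81.5 and 0 to 18.4 CPM in the others. Control replicate 2 held 23 of these cells, and over all libraries they gave 63 UMIs of Isg15 and 16 of Irf7.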
